A study of Rattus norvegicus with 20 samples.

Results

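Acta2, Tagln, Actb and Vim, 4 of the 30560 genes in the count table, were followed through all 8 groups of rat mesenchymal stromal cells (MSCs) cultured on soft or stiff surfaces. They were chosen by their Ensembl identifiers: ENSRNOG00000058039 (Acta2), ENSRNOG00000017628 (Tagln), ENSRNOG00000034254 (Actb) and ENSRNOG00000018087 (Vim). The symbols belong to that choice, because no table used here paired Ensembl identifiers with symbols. All 4 passed the filter on low counts and were among the 14034 genes tested.

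Bulk polyA RNA-seq had been made from MSCs of the bone marrow of female Wistar rats with no genetic change, grown on gelatin-coated silicone and passaged weekly. The soft surface had an elastic modulus of 2 kPa and the stiff surface 100 kPa. Cells stayed on 1 surface for 1 week (1w2, 1w100), 3 weeks (3w2, 3w100) or 5 weeks (5w2, 5w100). In the switched groups, 3 weeks of priming on one surface were followed by 2 weeks on the other (3w2→2w100 and 3w100→2w2). The groups of 1 and 3 weeks had 3 libraries each, and the 4 groups of 5 weeks in total had 2 each. According to the study's methods, replicates are MSCs of different rats and the cells were enriched with beads against CD54 and CD90. A culture therefore holds a selected but not a clonal population, and the markers of MSCs and of blood cells could not be checked by symbol. A lower level of a transcript can mean fewer cells that express it or less of it per cell, which cannot be told apart in bulk RNA.

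Acta2 encodes α-smooth muscle actin (α-SMA), the actin isoform that myofibroblasts add to their stress fibers and the protein by which the activation of MSCs to myofibroblasts is commonly scored. Tagln encodes transgelin (SM22α), an actin-binding protein of smooth muscle cells and myofibroblasts. Both genes are well known targets of serum response factor (SRF), which binds CArG boxes together with actin-sensitive myocardin-related coactivators. Actb encodes cytoplasmic β-actin, a main component of the actin cytoskeleton of nonmuscle cells and itself a known SRF target. Vim encodes vimentin, the intermediate filament protein of mesenchymal cells, which served as loading reference for Western blots in the study.

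The promoters of Acta2 and Vim are shown to set the binding motifs of a contractile gene beside those of a filament gene. RefSeq's table for the rat build GRCr8 held the promoter of these 2 of the 4 genes. The 250 bases before the transcription start are given 5′ to 3′ on the gene's own strand, chr1:241172504-241172753 (minus) for Acta2 and chr17:81577011-81577260 (plus) for Vim. Capitals mark matches, on either strand, to the CArG box with at most 1 mismatch, to CATTCC (the core bound by TEAD factors, which work with YAP and TAZ) and to TATAAA (the TATA box).
Acta2: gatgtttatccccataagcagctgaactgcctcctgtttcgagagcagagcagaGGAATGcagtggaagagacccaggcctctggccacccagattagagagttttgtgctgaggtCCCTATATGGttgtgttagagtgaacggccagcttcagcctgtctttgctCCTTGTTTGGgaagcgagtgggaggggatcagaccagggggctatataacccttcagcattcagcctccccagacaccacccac
Vim: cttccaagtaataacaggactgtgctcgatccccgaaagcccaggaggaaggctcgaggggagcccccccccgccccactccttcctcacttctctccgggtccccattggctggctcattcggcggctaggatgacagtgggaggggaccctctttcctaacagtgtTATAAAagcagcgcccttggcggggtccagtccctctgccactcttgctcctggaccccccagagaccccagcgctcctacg

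The Acta2 window held 2 CArG-like sequences, at 134 to 125 and at 84 to 75 bases before the start, and CATTCC on the opposite strand at 196 to 191. The Vim window held neither and had TATAAA at 82 to 77 bases before the start. Only this exact word was searched, so the similar tatataa of the Acta2 window, which lies nearer the start, is not marked. Among 33469 rat promoters of this length, 18.7% had a CArG-like sequence with at most 1 mismatch, 1.5% an exact CArG box, 12.1% CATTCC and 12.9% TATAAA. Neither gene had an exact CArG box there. These are matches of letters and not measured binding sites.

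All 4 transcripts were abundant in every library. The totals counted on genes ranged from 16127907 to 24139128 per library with a median of 18716923, and the 4 genes together took 2.32 to 3.64% of them. Single counts of a member ran from 65846 to 243903, with a counting error of at most 0.390%, far below the spread between libraries. Levels are given as CPM, the counts scaled to a common library size, with edgeR's TMM scaling. They are not per length and are compared here between libraries, not between genes.

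Acta2 was lowest after 1 week and spanned the widest range of the 4. Its CPM in replicates 1, 2 and 3 was 3205, 5311 and 4882 in 1w2 and 3200, 6215 and 4989 in 1w100. After 3 weeks it was 5351, 5313 and 7072 in 3w2 and 5999, 8235 and 6453 in 3w100. The surfaces overlapped at both times, and replicate 1 was the lowest library of each 1-week group. At 5 weeks, replicates 1 and 2 had 7592 and 6264 CPM in 5w2, 10010 and 6626 in 5w100, 9629 and 5946 in 3w2→2w100, and 8043 and 5934 in 3w100→2w2. The 5-week groups overlapped each other, and the second replicate lay between 5934 and 6626 CPM in all of them. Group means rose in the order 1w2 (4466 ± 1113, SD, n = 3), 1w100 (4801 ± 1516, SD, n = 3), 3w2 (5912 ± 1005, SD, n = 3), 3w100 (6895 ± 1182, SD, n = 3), 5w2 (6928 ± 939, SD, n = 2), 3w100→2w2 (6989 ± 1491, SD, n = 2), 3w2→2w100 (7788 ± 2604, SD, n = 2) and 5w100 (8318 ± 2393, SD, n = 2). No neighbours in this order were apart beyond the range of their libraries.

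Tagln was likewise lowest on average in 1w2 and highest in 5w100. Its CPM in replicates 1, 2 and 3 was 4264, 5883 and 4780 in 1w2 and 4396, 6789 and 4971 in 1w100. After 3 weeks it was 4890, 5712 and 6887 in 3w2 and 5648, 7749 and 6705 in 3w100. Soft and stiff libraries overlapped at both times. At 5 weeks, replicates 1 and 2 had 5984 and 5529 CPM in 5w2, 8836 and 7414 in 5w100, 7582 and 5304 in 3w2→2w100, and 7302 and 6599 in 3w100→2w2. Both 5w100 libraries lay above both 5w2 libraries and above both 3w100→2w2 libraries, while 3w2→2w100 spanned from below 5w2 to above the lower 5w100 library. The means ran from 4975 ± 827 (SD, n = 3) in 1w2 through 1w100, 5w2, 3w2, 3w2→2w100, 3w100 and 3w100→2w2 to 8125 ± 1006 (SD, n = 2) in 5w100. In this order, neighbours overlapped except 3w100→2w2 (6950 ± 497, SD, n = 2) and 5w100.

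Actb varied least between groups. In replicates 1, 2 and 3 it had 8842, 9998 and 7165 CPM in 1w2 and 9648, 10104 and 7455 in 1w100. The values after 3 weeks were 8333, 8741 and 9035 in 3w2 and 8517, 8875 and 8855 in 3w100. The 3-week libraries lay close together, within the range of the 1-week libraries. Replicates 1 and 2 of 5 weeks had 10526 and 9318 CPM in 5w2, 11899 and 8507 in 5w100, 11920 and 8619 in 3w2→2w100, and 10898 and 8083 in 3w100→2w2. The replicates of each 5-week group were further apart than the means of these 4 groups. Over all 8 groups, means ran from 8668 ± 1424 (SD, n = 3) in 1w2 to 10270 ± 2334 (SD, n = 2) in 3w2→2w100, and all neighbours in the order 1w2, 3w2, 3w100, 1w100, 3w100→2w2, 5w2, 5w100, 3w2→2w100 overlapped.

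Vim had its highest mean levels in the groups of soft priming at 5 weeks. In replicates 1, 2 and 3 it had 6656, 6495 and 5403 CPM in 1w2 and 6367, 5991 and 5230 in 1w100. After 3 weeks the values were 5994, 7192 and 5684 in 3w2 and 5937, 6800 and 5785 in 3w100. Soft and stiff libraries overlapped at both times, and at 1 week Vim was lower on stiff within each of the 3 replicate numbers, with folds of 0.957, 0.922 and 0.968. That pattern was not tested, and the share of all genes with it was not counted. At 5 weeks, replicates 1 and 2 had 8175 and 7897 CPM in 5w2, 8986 and 7182 in 3w2→2w100, 8496 and 5844 in 5w100, and 7920 and 5538 in 3w100→2w2. After stiff priming replicate 2 was lower than any soft-primed library, and replicate 1 was within their range. Means ran from 5863 ± 579 (SD, n = 3) in 1w100 through 3w100, 1w2, 3w2, 3w100→2w2, 5w100 and 5w2 to 8084 ± 1276 (SD, n = 2) in 3w2→2w100, with overlap between all neighbours.

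**Figure D1:**
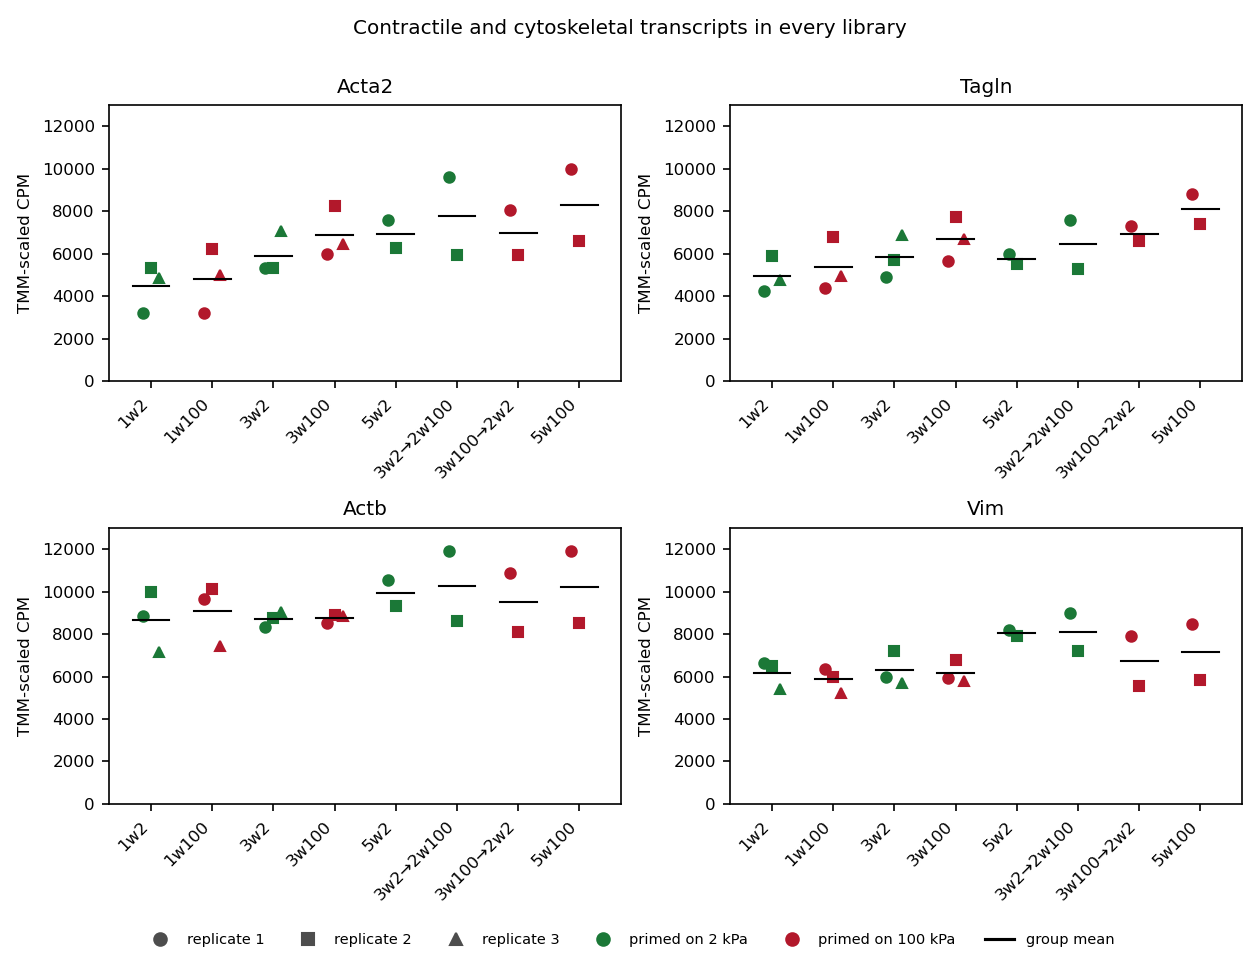
TMM-scaled CPM (y axis) of Acta2, Tagln, Actb and Vim in each of the 20 libraries by group (x axis), with the marker giving the replicate number, the colour the priming surface and the line the group mean. Acta2 ranges from 3200 to 10010 CPM and is lowest at 1 week, while Actb stays between 7165 and 11920 CPM.

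The members differed in how much they varied among libraries of 1 group. The within-group SD of log2 CPM was 0.36 for Acta2, 0.25 for Tagln, 0.22 for Actb and 0.21 for Vim, and the range of the group means on the log2 scale was 0.90, 0.71, 0.24 and 0.46 in the same order. For Actb the range between groups was about the size of the SD within them. Among the 91 genes with a mean of at least 1000 CPM, 22.0% had a larger within-group SD than Acta2, 50.5% than Tagln, 60.4% than Actb and 65.9% than Vim. A larger range of group means than that of Actb was found in 94.5% of these abundant genes, against 34.1% for Acta2, 45.1% for Tagln and 69.2% for Vim.

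The first question was whether the stiff surface changed these transcripts while cells stayed on it. After 1 week the fold of 1w100 to 1w2 was 1.08 for Acta2 (95% interval 0.710 to 1.63), 1.08 for Tagln (0.797 to 1.47), 1.05 for Actb (0.786 to 1.39) and 0.948 for Vim (0.722 to 1.24). After 3 weeks the fold of 3w100 to 3w2 was 1.17 for Acta2 (0.770 to 1.77), 1.15 for Tagln (0.846 to 1.56), 1.01 for Actb (0.755 to 1.34) and 0.982 for Vim (0.748 to 1.29). None of the 4 differed by edgeR's quasi-likelihood test at either time, and their intervals leave room for changes in both directions. The test ignored replicate numbers, which pair the 1-week libraries as far as the data tell, so the intervals include the spread between numbers. Within replicate numbers, the 1-week folds were 0.998 to 1.17 for Acta2, 1.03 to 1.15 for Tagln, 1.01 to 1.09 for Actb and 0.922 to 0.968 for Vim. A test paired within a week was not run. A gene was called at an adjusted p (Benjamini-Hochberg) below 0.05, and the background of called genes among all tested was 0% at both times, with 54 genes at 1 week and 863 at 3 weeks below an unadjusted p of 0.05, and DESeq2 called 0 and 10 genes.

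After 5 weeks Tagln had the largest difference between the surfaces. Its fold of 5w100 to 5w2 was 1.41 (95% interval 0.969 to 2.06), a log2 difference of 0.50 ± 0.25 (SE), with an adjusted p of 0.372 in edgeR's test. The 2 libraries of each group did not overlap, as was the case, with the stiff group higher, for 21.5% of all tested genes. Acta2 had a fold of 1.20 (0.722 to 2.00), Actb of 1.03 (0.725 to 1.46) and Vim of 0.892 (0.640 to 1.24), and the groups overlapped for each. No member was called, against a background of 0.264% of genes. Within replicate 1, 5w100 exceeded 5w2 for Acta2 by 1.32-fold and for Tagln by 1.48-fold, and within replicate 2 by 1.06-fold and 1.34-fold. For Actb and Vim the replicates pointed in opposite directions, with folds of 1.13 and 0.913 for Actb and of 1.04 and 0.740 for Vim. How many of all tested genes agreed in direction between the replicates was not counted. The growth of the stiffness effect from 1 to 5 weeks, tested as an interaction, was 0.38 ± 0.33 (SE) on the log2 scale for Tagln and 0.16 ± 0.44 (SE) for Acta2, with adjusted p of 0.881 and 0.973 in edgeR's test. Here the background was 0% of genes, with 983 at an unadjusted p below 0.05 and 36 called by DESeq2.

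The switched cultures separated the surface of priming from the surface at harvest. Over the 4 groups of 5 weeks, stiff against soft priming gave a fold of 1.23 for Tagln (95% interval 0.946 to 1.61), 1.04 for Acta2 (0.725 to 1.49), 0.975 for Actb (0.761 to 1.25) and 0.862 for Vim (0.681 to 1.09). Tagln was thus higher and Vim lower in point estimate, and neither passed the test, with adjusted p of 0.302 and 0.416 in edgeR. The background was 9.75% of genes called. Libraries of 1 replicate number and priming surface may share their first 3 weeks of culture, though no source used here states it, and with each such pair summed to 1 library, 11 genes were called and Tagln had a log2 difference of 0.32 ± 0.25 (SE) with an adjusted p of 0.586 in edgeR. Stiff against soft harvest surface gave folds of 1.16 for Acta2 (0.808 to 1.66), 1.14 for Tagln (0.877 to 1.49), 1.05 for Actb (0.824 to 1.35) and 1.04 for Vim (0.818 to 1.31). No member was called by harvest surface, where the background was 0% of genes, with 114 genes at an unadjusted p below 0.05 and 0 called by DESeq2.

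Each switch was also set against the cultures that stayed. After transfer from soft to stiff, the fold of 3w2→2w100 to 5w2 was 1.12 for Acta2 (95% interval 0.676 to 1.87), 1.12 for Tagln (0.769 to 1.63), 1.04 for Actb (0.729 to 1.47) and 1.01 for Vim (0.721 to 1.40). Replicate 1 was higher after the switch for all 4 genes and replicate 2 lower for all 4. After transfer from stiff to soft, the fold of 3w100→2w2 to 5w100 was 0.840 for Acta2 (0.505 to 1.40), 0.855 for Tagln (0.588 to 1.25), 0.930 for Actb (0.656 to 1.32) and 0.938 for Vim (0.673 to 1.31). Both replicates were lower after this switch for all 4 genes, without a call for any of them. The Tagln libraries of 3w100→2w2 and 5w100 did not overlap, as was so, with 5w100 higher, for 8.05% of genes. For neither switch was the share of all genes with the same replicate pattern counted. The 4 genes are correlated across libraries, as given below, so they are not separate observations. In both comparisons the background was 0% of genes called, with 52 and 87 genes at an unadjusted p below 0.05 and 0 called by DESeq2 in each.

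Between cultures that ended on the same surface after different priming, Tagln had the widest difference of the 4 in point estimate. Against 5w100, its fold in 3w2→2w100 was 0.793 (0.545 to 1.15), with 0.936 for Acta2, 1.01 for Actb and 1.13 for Vim. Against 5w2, its fold in 3w100→2w2 was 1.21 (0.829 to 1.76), with 1.01 for Acta2, 0.957 for Actb and 0.837 for Vim. Both 3w100→2w2 libraries lay above both 5w2 libraries for Tagln, as did, in that direction, 22.6% of all genes. These comparisons share their 5w2 and 5w100 libraries with those above. None of the 8 results was called, against a background of 0.0570% of genes on the stiff and 0.178% on the soft surface.

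Over the 14 comparisons of stiffness, priming, switch and time, edgeR gave 0 of 56 results of the 4 genes with an adjusted p below 0.05 and 0 below an unadjusted p of 0.05. The share of all tested genes below an unadjusted p of 0.05 ran from 0.371% for 3w2→2w100 against 5w2 to 25.8% for the priming surface, and was 15.4% for 5w100 against 5w2, 22.3% for 3w2 against 1w2 and 22.7% for 3w100 against 1w100. The lowest unadjusted p was 0.0698, for Tagln in 5w100 against 5w2, and the lowest adjusted p was 0.291, for Acta2 in 3w100 against 1w100. DESeq2 gave 0 adjusted calls and 1 unadjusted p below 0.05, of 0.0354, for Tagln in 5w100 against 5w2.

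**Figure D2:**
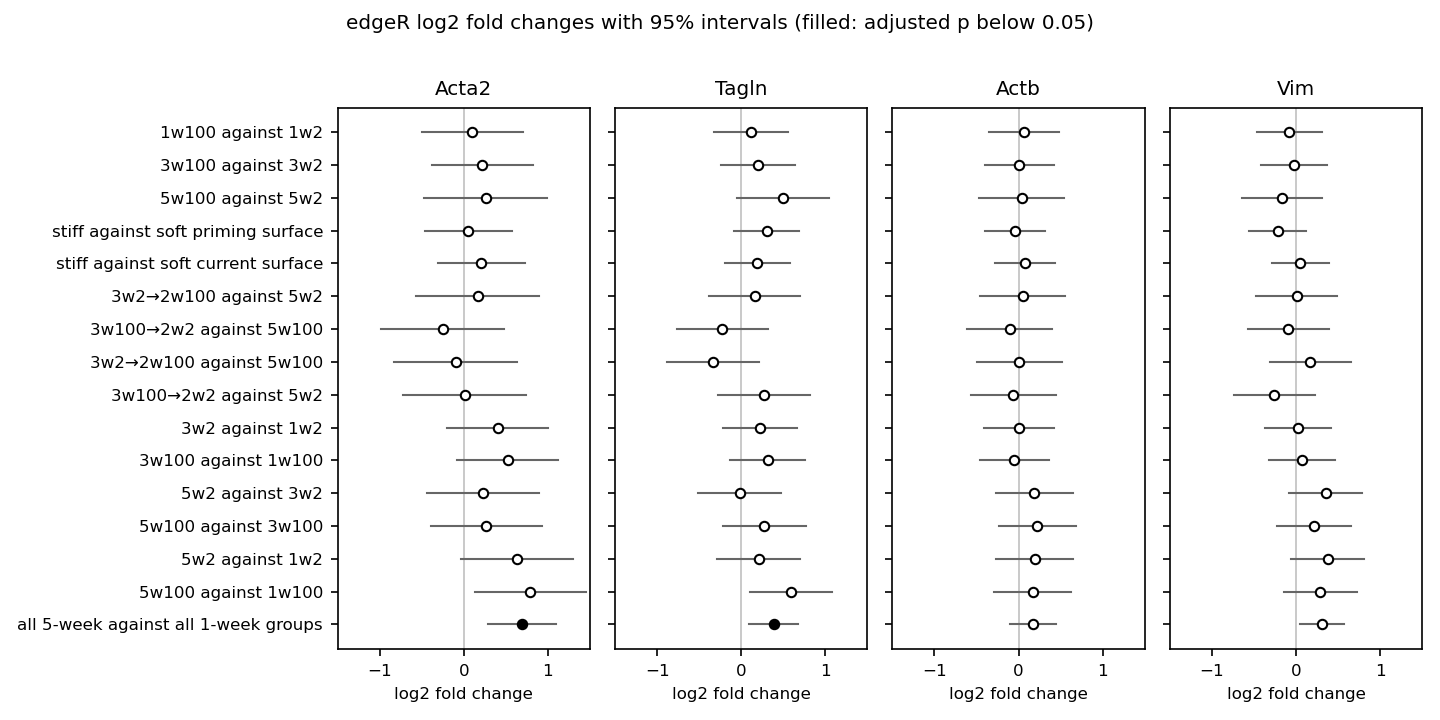
Log2 fold change (x axis, TMM-scaled edgeR fit) of each member in 16 comparisons (y axis), with 95% intervals, where filled points have an adjusted p below 0.05. The filled points are Acta2 at 0.69 and Tagln at 0.39 in all 5-week against all 1-week groups.

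For Acta2 the point estimates from 1 to 3 weeks were larger than those for either surface, a difference that was not tested. From 1 to 3 weeks Acta2 had a fold of 1.32 on soft (95% interval 0.874 to 2.01) and 1.44 on stiff (0.948 to 2.18), with adjusted p of 0.443 and 0.291 in edgeR's test. All 3w2 libraries lay above all 1w2 libraries, though 2 of the 3 by little, and 14.3% of genes were apart in that direction. Tagln had folds of 1.17 (0.862 to 1.59) on soft and 1.24 (0.916 to 1.69) on stiff, and Actb and Vim lay between 0.965 and 1.05. The background of called genes was 8.03% on soft and 8.41% on stiff. From 3 to 5 weeks no member was called on either surface, nor was any other gene by edgeR, with 0% called, while the unadjusted p was below 0.05 for 1315 genes on soft and 889 on stiff, and 105 and 13 were called in DESeq2. Vim had a fold of 1.28 (0.945 to 1.73) from 3w2 to 5w2 without overlap of its libraries, which 15.8% of genes had in that direction, as did Actb with a fold of 1.14 (0.829 to 1.57).

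Since the values by week differed most between 1 and 5 weeks, 3 comparisons were added after they had been seen. On stiff, 5w100 against 1w100 gave a fold of 1.73 for Acta2 (95% interval 1.10 to 2.74) and 1.51 for Tagln (1.07 to 2.12), with adjusted p of 0.0919 and 0.0884 in edgeR. On soft, 5w2 against 1w2 gave 1.55 for Acta2 (0.981 to 2.45) and 1.16 for Tagln (0.823 to 1.63), with adjusted p of 0.187 and 0.592 in edgeR. The background called was 17.2% on stiff and 15.3% on soft. Vim had folds of 1.30 on soft (0.961 to 1.76) and 1.22 on stiff (0.904 to 1.65), and Actb of 1.14 and 1.13. None of these was called. The libraries did not overlap for Acta2 on either surface, for Tagln on stiff and for Vim on soft. In that direction 22.3% of genes did not overlap on soft and 21.6% on stiff.

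Over all 8 libraries of 5 weeks and all 6 of 1 week, Acta2 rose 1.62-fold (95% interval 1.22 to 2.14), a log2 change of 0.69 ± 0.19 (SE) with an adjusted p of 0.00881 in edgeR's test. Tagln rose 1.31-fold (1.07 to 1.60), with an adjusted p of 0.0360. Vim had a fold of 1.24 (1.04 to 1.49) with an adjusted p of 0.0524 in edgeR and 0.0215 in DESeq2, and Actb of 1.12 (0.930 to 1.36) with an adjusted p of 0.312. The call of Acta2 was kept in 20 of 20 alternatives and that of Tagln in 10 of 20. No alternative left out the 1-week replicate 1 libraries of both surfaces together. The rise lay mainly in replicate 1, where Acta2 had 3205 and 3200 CPM at 1 week and 7592 to 10010 at 5 weeks. In replicate 2 Acta2 had 5311 and 6215 CPM, then 5934 to 6626. Tagln had 4264 and 4396 CPM, then 5984 to 8836, in replicate 1. In replicate 2 Tagln had 5883 and 6789 CPM, then 5304 to 7414. Tagln lost its call without replicate 1 of any 5-week group or without replicate 1 or 3 of either 1-week group, with adjusted p of 0.0639 to 0.102 in edgeR, and with only the groups compared, at 0.0560. With the 5-week libraries of 1 number and priming surface summed, Acta2 had an adjusted p of 0.0259 and Tagln of 0.0881 in edgeR. In this comparison 41.1% of all tested genes were called, so that 2 of 4 members is near the background. The TMM factors were 1.04 to 1.12 at 1 week and 0.927 to 0.983 at 5 weeks, and their part in the rise was not tested beyond RLE scaling, which gave the same calls. Time and passage number cannot be told apart, and the 5-week groups hold 2 of the 3 replicate numbers.

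The 2 replicates stood apart at 5 weeks in the same order in all groups. Replicate 1 exceeded replicate 2 in 4 of 4 groups for each of the 4 genes. The folds were 1.21 to 1.62 for Acta2, 1.08 to 1.43 for Tagln, 1.13 to 1.40 for Actb and 1.04 to 1.45 for Vim. The lowest of these folds was found in 5w2 for each gene. Of all tested genes, 19.3% were likewise higher in replicate 1 in 4 of 4 groups and 17.9% lower. At 1 week the order differed by gene: replicate 2 was the highest of 3 for Acta2, Tagln and Actb on both surfaces, and replicate 1 for Vim.

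**Figure D3:**
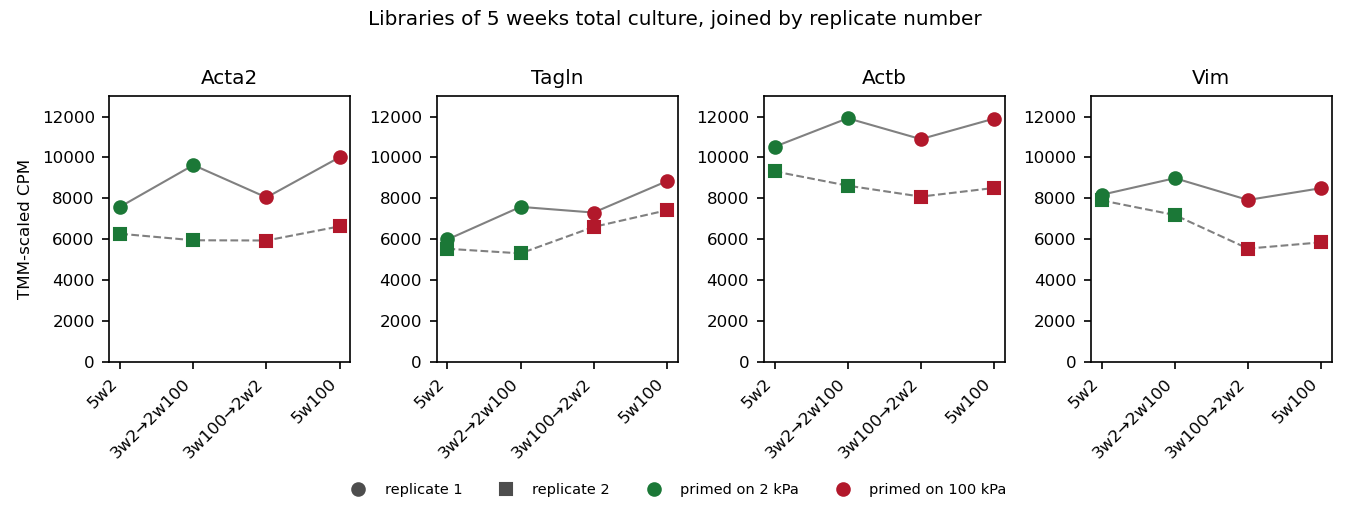
TMM-scaled CPM (y axis) of the 4 members in the 4 groups of 5 weeks in total (x axis), with libraries of 1 replicate number joined by a line, solid for replicate 1 and dashed for replicate 2, and colour for the priming surface. The solid line lies above the dashed line in each group for each gene, with folds from 1.04 to 1.62.

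The members fell into pairs by their course over the 20 libraries. Acta2 and Tagln had a Pearson r of log2 CPM of 0.893, and 0.893 again for the deviations from the group means. Only 0.0499% of tested genes were more like Acta2 than Tagln was. Actb and Vim had r = 0.810, and 0.831 for the deviations, with 0.706% of genes more like Actb. The pairs across were looser, with r of 0.531 for Acta2 and Actb, 0.495 for Acta2 and Vim, 0.548 for Tagln and Actb and 0.351 for Tagln and Vim. These correlations describe 20 libraries of which several may share early culture or a rat, and no test is attached. Outside the 4, ENSRNOG00000018184 was the gene most like both Acta2 (r = 0.938) and Tagln (r = 0.911), ENSRNOG00000020660 the most like Actb (r = 0.959) and ENSRNOG00000016416 the most like Vim (r = 0.936). The median r of all genes with a member was -0.02 for Tagln and Acta2, -0.03 for Actb and -0.02 for Vim.

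Count ratios between members within a library do not depend on scaling, and 3 of the 6 did not overlap between the priming surfaces. The count ratio of Tagln to Vim was 0.732 and 0.700 in 5w2 and 0.844 and 0.739 in 3w2→2w100, against 1.04 and 1.27 in 5w100 and 0.922 and 1.19 in 3w100→2w2 (replicates 1 and 2). All 4 stiff-primed libraries lay above all 4 soft-primed ones, whichever surface they were harvested from. The ratio was 1.46-fold higher after stiff priming, with an exact two-sided permutation p of 0.0286. This is the smallest that 4 against 4 libraries allow, and it was 0.0571 after adjustment over the 6 ratios. The permutation took the 4 libraries of a surface as separate, though they are 2 replicate numbers with 2 cultures each. Deviations from the group means correlated between those cultures (r of 0.760 and 0.802). The p of each ratio may therefore be too small. As a background, the count ratio to Vim was higher without overlap after stiff priming for 11.4% of 14033 genes. It was lower without overlap for 2.74%, so ratios to Vim leaned upward after stiff priming in general.

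Tagln to Actb and Actb to Vim had the same separation. Tagln to Actb was 0.569 and 0.593 in 5w2 and 0.636 and 0.615 in 3w2→2w100, against 0.743 and 0.872 in 5w100 and 0.670 and 0.816 in 3w100→2w2. This ratio was 1.28-fold higher after stiff priming without overlap, with an exact p of 0.0286 and an adjusted p of 0.0571. Relative to Actb, 5.92% of genes had the same pattern and 6.03% the opposite one. Actb to Vim ranged from 1.38 to 1.46 after stiff and from 1.18 to 1.33 after soft priming, 1.14-fold apart with the same exact and adjusted p. For the Acta2 transcript the separation was less complete. Acta2 to Vim ranged from 1.02 to 1.18 after stiff and from 0.793 to 1.07 after soft priming. The surfaces were 1.22-fold apart with an exact p of 0.0571 and an adjusted p of 0.0686. Acta2 to Actb was 1.07-fold apart with an exact p of 0.257. Acta2 to Tagln went the other way, with a fold of 0.837, an exact p of 0.0571 and an adjusted p of 0.0686.

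None of the 6 ratios passed after adjustment, and the 4 libraries of a priming surface come from 2 replicate numbers and may not be independent. The ratios themselves depend on each other, because Tagln to Vim is the product of Tagln to Actb and Actb to Vim. With 2 summed pairs a surface no permutation test could pass. At 1 and 3 weeks the soft and stiff libraries overlapped in Tagln to Vim. After 3 weeks Tagln to Vim was 0.816, 0.794 and 1.21 in 3w2 and 0.951, 1.14 and 1.16 in 3w100, and after 1 week 0.641, 0.906 and 0.885 in 1w2 and 0.690, 1.13 and 0.950 in 1w100. Within each of the 3 replicate numbers of 1 week the ratio was higher on stiff. This was also so for Actb to Vim, with 1.33, 1.54 and 1.33 in 1w2 and 1.52, 1.69 and 1.43 in 1w100, and for Acta2 to Vim, with 0.481, 0.818 and 0.903 in 1w2 and 0.502, 1.04 and 0.954 in 1w100. All these ratios share Vim, which was itself lower on stiff within each number, so they are not separate results. These 1-week differences were not tested, and the share of all genes with the same pattern was not counted.

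**Figure D4:**
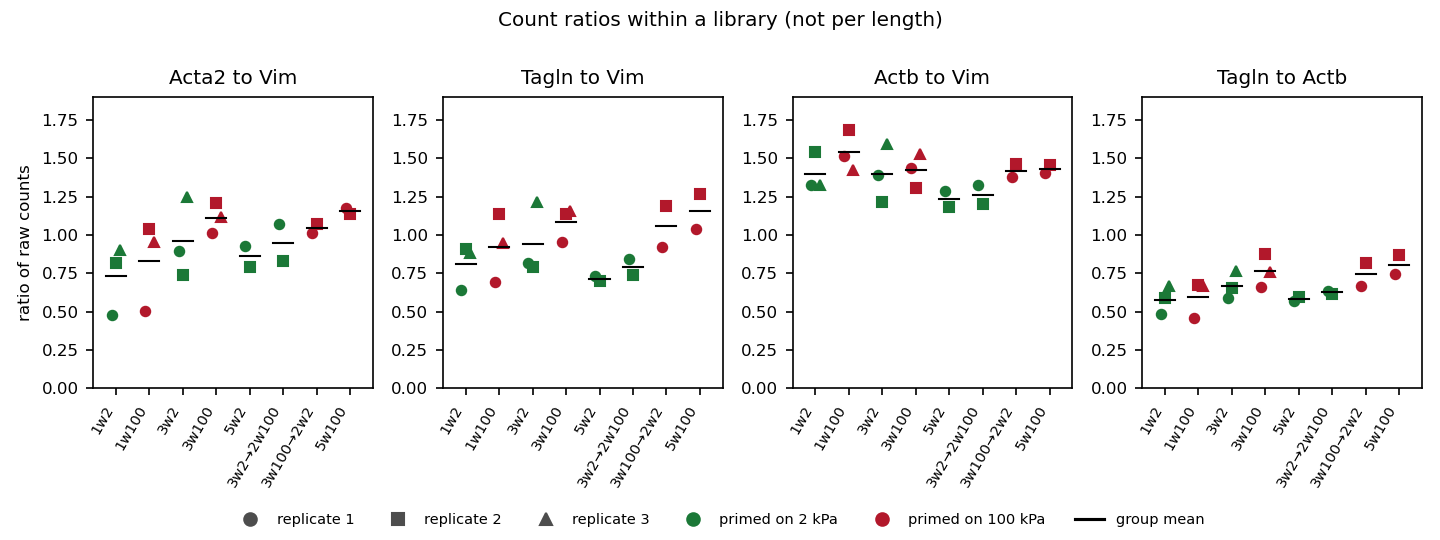
Ratio of raw counts of 2 members within a library (y axis, not per length) for 4 ratios by group (x axis), with markers for replicate numbers, colours for the priming surface and lines for group means. Tagln to Vim at 5 weeks is 0.922 to 1.27 after stiff and 0.700 to 0.844 after soft priming.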

How the data were processed

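The authors trimmed adapters with TrimGalore!, mapped reads to mRatBN7.2 with HISAT2 and deposited raw counts per Ensembl gene from featureCounts. For versions, strand setting and multiply matching reads, the sources used here give nothing. Actin genes have near-identical coding sequences and processed copies, so the counts of Acta2 and Actb are uncertain to that extent.

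Groups came from the sample labels. The test was edgeR 4.0.16 under R 4.3.3 (TMM scaling, filterByExpr with a minimum count of 10 and a total of 15, quasi-likelihood test, 1 model of 8 groups over 20 libraries, no block). The threshold for a call was an adjusted p (Benjamini-Hochberg, 14034 genes) under 0.05. Log2 CPM used a prior count of 2. Ratios were compared by exact permutation of libraries. The scripts were tested on simulated data. Genes named for likeness had the highest r with a member. Alternatives were DESeq2 1.42.0, RLE scaling, no filter, a replicate block, only the groups compared, leaving out each library, and, added after the values were seen, summed libraries. Members, lists and tests were chosen with earlier results of these data known.

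Between libraries of 1 group the chi-square per degree of freedom was 18.6 to 98.5, so none was a duplicate. Same-numbered libraries were checked for pairing by the r of their deviations from the group means, which spanned 0.626 to 0.777 in the 1-week groups, 0.0840 to 0.465 in those of 3 weeks and 0.168 to 0.802 in those of 5. At 5 weeks r was 0.760 for 5w2 with 3w2→2w100 and 0.802 for 5w100 with 3w100→2w2. Between 5-week groups of different priming it was 0.168 to 0.245. The numbers thus pair the libraries at 1 week across surfaces and at 5 weeks mainly within a priming surface, as far as the data tell. Lists of contractile, adhesion and filament genes and of cell type markers were not analysed here for lack of symbols.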

Additional observations from a re-analysis of the deposited data

How the results depend on the processing

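The 4 genes gave 68 results with 764 values under the alternatives, of which 36 had an adjusted p below 0.05, all in the comparisons added after the values were seen. In the planned comparisons 0 of 320 values without 1 library passed, with a lowest adjusted p of 0.144. The replicate block changed no call of a member: Tagln in 5w100 against 5w2 had the lowest unadjusted p among the blocked results of planned comparisons, 0.0789, at a log2 difference of 0.50. The block gave each replicate number 1 effect for all weeks and surfaces, so it cannot show what pairing within a week would give. For all genes, 5w100 against 5w2 gave 37 calls in edgeR, 592 in DESeq2, 498 with the replicate block and 0 with only the groups compared, and the priming surface 1369, 2297 with the block, 194 with only the groups compared and 11 with summed libraries. The count was 8 for 3w2→2w100 against 5w100 (DESeq2 440, block 358, only the groups compared 0) and 25 for 3w100→2w2 against 5w2 (DESeq2 446, block 354, no filter 49, only the groups compared 0). It was 1127 for 3w2 against 1w2 (block 1802, only the groups compared 585), 1180 for 3w100 against 1w100 (block 1872), and with only the groups compared it went from 2152 to 1257 for 5w2 against 1w2 and from 2417 to 1005 for 5w100 against 1w100. TMM and RLE scaling moved the median of all genes by less than 0.1.

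Values of changed sign were at most 0.24 in size on the log2 scale. Actb in 3w2 against 1w2 was -0.0052 with DESeq2 and -0.0055 with RLE scaling, and Tagln in 5w2 against 3w2 was 0.0027 with the replicate block. Over all 5-week against all 1-week groups, Tagln lost its call with only the groups compared (0.39) and with summed libraries (0.38), and Vim gained one with DESeq2 (0.30). In 5w100 against 1w100 Tagln gained a call with DESeq2 (0.59).

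Leaving out 1 library in turn changed the sign or the call of these log2 differences. In 1w100 against 1w2, Acta2 ranged from -0.12 to 0.33, Tagln from -0.085 to 0.25, Actb from -0.051 to 0.19. In 3w100 against 3w2, Actb ranged from -0.020 to 0.035, Vim from -0.10 to 0.080. In 5w100 against 5w2, Acta2 ranged from -0.066 to 0.54, Actb from -0.22 to 0.27, Vim from -0.46 to 0.085. In stiff against soft priming surface, Acta2 ranged from -0.11 to 0.25, Actb from -0.17 to 0.089. In stiff against soft current surface, Actb ranged from -0.054 to 0.19, Vim from -0.098 to 0.19. In 3w2→2w100 against 5w2, Acta2 ranged from -0.22 to 0.48, Tagln from -0.12 to 0.40, Actb from -0.20 to 0.26, Vim from -0.16 to 0.16. In 3w100→2w2 against 5w100, Acta2 ranged from -0.52 to 0.077, Actb from -0.34 to 0.16, Vim from -0.37 to 0.20. In 3w2→2w100 against 5w100, Acta2 ranged from -0.48 to 0.24, Actb from -0.24 to 0.27, Vim from -0.070 to 0.47. In 3w100→2w2 against 5w2, Acta2 ranged from -0.23 to 0.21, Actb from -0.30 to 0.13. In 3w2 against 1w2, Actb ranged from -0.11 to 0.12, Vim from -0.083 to 0.092. In 3w100 against 1w100, Actb ranged from -0.17 to 0.034, Vim from -0.00047 to 0.12. In 5w2 against 3w2, Tagln ranged from -0.13 to 0.12. In 5w100 against 3w100, Acta2 ranged from -0.058 to 0.54, Actb from -0.041 to 0.44, Vim from -0.080 to 0.46. In the change of the stiffness effect from 1 to 5 weeks, Acta2 ranged from -0.17 to 0.43, Actb from -0.29 to 0.20, Vim from -0.39 to 0.16. In 5w100 against 1w100, Tagln ranged from 0.45 to 0.80, Actb from -0.092 to 0.39, Vim from -0.0038 to 0.53. In all 5-week against all 1-week groups, Tagln ranged from 0.31 to 0.49, Vim from 0.24 to 0.37.

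Without 1 library, Tagln over all 5-week against all 1-week groups lost its call for replicate 1 of each 5-week group and replicates 1 and 3 of both 1-week groups, with adjusted p of 0.0639 to 0.102. Vim gained a call there without replicate 2 of 5w100, 3w2→2w100 or 3w100→2w2, and Tagln in 5w100 against 1w100 gained one without replicate 2 of 1w100. The causes were not tested. A group left with 1 library took its spread from the other groups. Counting error was at most 0.390% for a member, far below the spread between libraries. The planned counts for gene lists were not run for lack of symbols.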
